A study of Mus musculus with 6 samples.

Results

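The genes described here encode the cohesin complex, its loader and its PDS5 regulators, together with CTCF. Each member was taken by its exact gene symbol: Smc1a, Smc3, Rad21, Stag1, Stag2, Nipbl, Pds5a, Pds5b and Ctcf. These are 9 of the 38926 gene symbols in the count lists, and all 9 passed the filter on low counts that left 13646 genes for testing. The rule uses the symbols alone, and the genes were proposed with earlier results of these data known. RNA had been sequenced from hematopoietic stem cells (HSCs) sorted by surface markers from mouse fetal liver at E14.5 (embryonic day). The 3 control samples had the genotype Vav-Cre with Dpy30 F/+, that is, 1 floxed and 1 intact Dpy30 allele. The 3 knockout samples had Vav-Cre with Dpy30 F/-, that is, 1 floxed allele and 1 null allele. Each of 3 litters gave 1 sample of each genotype, so sample numbers 1 to 3 are litter numbers. All samples carried Vav-Cre, a Cre recombinase driven by the Vav promoter in blood-forming cells, so control cells in which Cre had acted were heterozygous for Dpy30. The labels do not say whether a sample came from 1 embryo or from pooled embryos, nor the sex of the embryos.

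Cohesin is a ring built from the ATPase subunits SMC1A and SMC3, closed by the kleisin RAD21 and completed by either STAG1 or STAG2. NIPBL, with its partner MAU2, loads the ring onto DNA and drives the extrusion of DNA loops, PDS5A and PDS5B bind the ring and take part in both its release and its stable retention, and CTCF is the zinc finger protein that halts the ring at its binding sites. The ring also holds sister chromatids together until anaphase, and in blood the genes of its subunits are known as recurrent targets of mutation in myeloid malignancies. DPY30, the protein targeted in the knockouts, is shared by all SET1/MLL histone methyltransferase complexes, whose mark is found at active promoters. The comparison of knockout with control addresses whether transcript levels of the cohesin and CTCF genes differ when Dpy30 is lost.

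The members lie on 6 chromosomes (GRCm38, GENCODE M21, all protein-coding). Smc1a (X, 152016428 to 152062694) and Stag2 (X, 42149317 to 42277185) are X-linked. Rad21 (15, 51962240 to 51991747) and Nipbl (15, 8290617 to 8444463) share chromosome 15, and Pds5a (5, 65605721 to 65698273) and Pds5b (5, 150673739 to 150810690) share chromosome 5. Smc3 (19, 53600398 to 53645833), Stag1 (9, 100597798 to 100959375) and Ctcf (8, 105636568 to 105682922) are alone on theirs. Of the genes in the count lists, Agrp and Gm5914 on the opposite strand share 114 and 370 bases of exon with Ctcf. Their counts were at most 37 and 20 in any sample, against at least 1957 for Ctcf.

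Promoter windows from 250 bases before to 50 after an annotated start (RefSeq, GRCm38.p6) were at hand for 6 of the 9 members. They were rich in CpG, with 23 to 55 CpG dinucleotides each against a median of 7 over all 32851 windows. Both strands were searched for the core GCCATNTT, known from sites of the zinc finger factor YY1. It was present in 4 of the 6, namely Ctcf, Pds5b, Smc3 and Stag1. Of all windows 6.05% held it, as did 8.005% of the 7071 windows with at least 23 CpG. This motif was chosen after the windows had been read, so its count is a description only, and a match is not a site of binding. The 4 matches are printed to show the shared core and the bases around it. Each is written 5′ to 3′ with the core in capitals. The positions are chr8:105636537-105636566 (plus strand) for Ctcf, chr5:150673779-150673808 (plus) for Pds5b, chr19:53600385-53600414 (plus) for Smc3 and chr9:100643235-100643264 (minus) for Stag1.
Ctcf: accgcgccgccGCCATTTTgtgtccgagcc
Pds5b: ctgctcttggcGCCATTTTgaagcggagag
Smc3: ccgcggccgccGCCATTTTgtttggccaca
Stag1: ggttgccgcccGCCATTTTtagagcttctc
In all 4 the core reads GCCATTTT. Counted from the RefSeq start as base 1, it begins at base 1 in Smc3, at base 11 in Ctcf and at base -37 in Pds5b. In Stag1 it lies at base -202 on the opposite strand. Of these 4 genes, Pds5b and Stag1 have a RefSeq start inside the gene as GENCODE draws it. Their cores lie inside the GENCODE gene too. The other motifs searched, also on both strands, were CCGGAAG (ETS factors), the palindrome of NRF1 and TTGGCGC (E2F). They were present in 0, 2 and 3 of the 6 member windows, in 8.86%, 4.60% and 2.45% of all windows, and in 19.1%, 14.3% and 5.996% of the windows with at least 23 CpG.

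Counts assigned to genes came to 31897737 to 43394700 per sample. Dpy30 itself had 24.6, 24.2 and 31.6 counts per 1000000 (CPM, scaled between libraries by the trimmed mean of M values, TMM) in the controls of litters 1 to 3, and 7.93, 5.95 and 13.7 in the knockouts of the same litters, so every knockout was below every control (log2 fold change -1.55, SE 0.46; edgeR adjusted p = 0.672). Of 13 HSC marker genes, none was at 0 in any sample but Ly6a in control 3, and their summed level was 799.9 to 840.5 CPM in controls. In knockouts 1 and 2 the sum was 994.9 and 1129 CPM and in knockout 3 it was 425.6 CPM. Knockout 3 had, for example, 27.2 CPM of Hlf, a transcription factor gene of HSCs, where the other 5 samples had 146 to 230. Over the 3 knockouts together, 9 of the 13 HSC markers had a positive log2 fold change, as 50.8% of all tested genes had. The summed level of 12 myeloid and macrophage markers was 133 to 247 CPM in controls and 450.3 to 1338 CPM in knockouts, highest in knockout 3, and all 11 that were tested had a positive log2 fold change. Summed lymphoid markers (9 genes) were at 0 to 2.04 CPM in controls and 15.1 to 65.9 CPM in knockouts, again highest in knockout 3. These sums rest on few genes: 7 of the 9 were at 0 in knockout 1, 7 in knockout 2 and 4 in knockout 3. Only 2 of the 9 passed the filter on low counts. Summed erythroid markers were at 1390 to 2495 CPM in controls and at 1062, 1233 and 3023 CPM in knockouts 1 to 3. For hepatocyte markers, and for megakaryocyte and mast cell markers, the sum in knockout 3 lay within the range of the controls. The part of these cell types in the values of the members was not tested. Knockout 3 therefore stands apart in the HSC, myeloid, lymphoid and erythroid lists. Fitted changes that it moved by more than 1.5 times are also given without it. It also had the fewest genes with a count, 13972, beside 14674 in knockout 2 and 16149 to 17241 in the other samples. Its Pearson correlations of log2 CPM with the other samples were 0.72 to 0.76, against 0.77 to 0.88 between those samples. In bulk RNA, fewer cells of a type and less RNA per cell cannot be told apart.

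None of the 9 members passed the threshold of 0.05 on the adjusted p in edgeR's quasi-likelihood test, with or without litter as a block, nor in DESeq2, and none had an unadjusted p under 0.05. Over all 13646 tested genes 0% passed in edgeR, and 1.02% passed in DESeq2. Unadjusted edgeR p-values were under 0.05 for 6.51%. Among the 1302 tested genes whose mean CPM lay in the range of the members, called from here on genes of like level, these shares were 0%, 1.54% and 10.7%. The fitted log2 fold changes of the members, knockout over control, ran from -0.44 for Stag2 to 0.23 for Nipbl, with a median of -0.01 against 0.01 over all tested genes. It was positive for 4 of the 9, as for 50.8% of all tested genes and 53.1% of genes of like level. The adjusted p lay between 0.831 and 0.995 (edgeR, Benjamini-Hochberg). Within a genotype the samples came from separate litters, while each control had a knockout litter mate. The main edgeR fit used genotype alone and left this pairing out. Its p-values therefore rest on the spread between samples of the same genotype in 1 study.

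**Figure D1:**
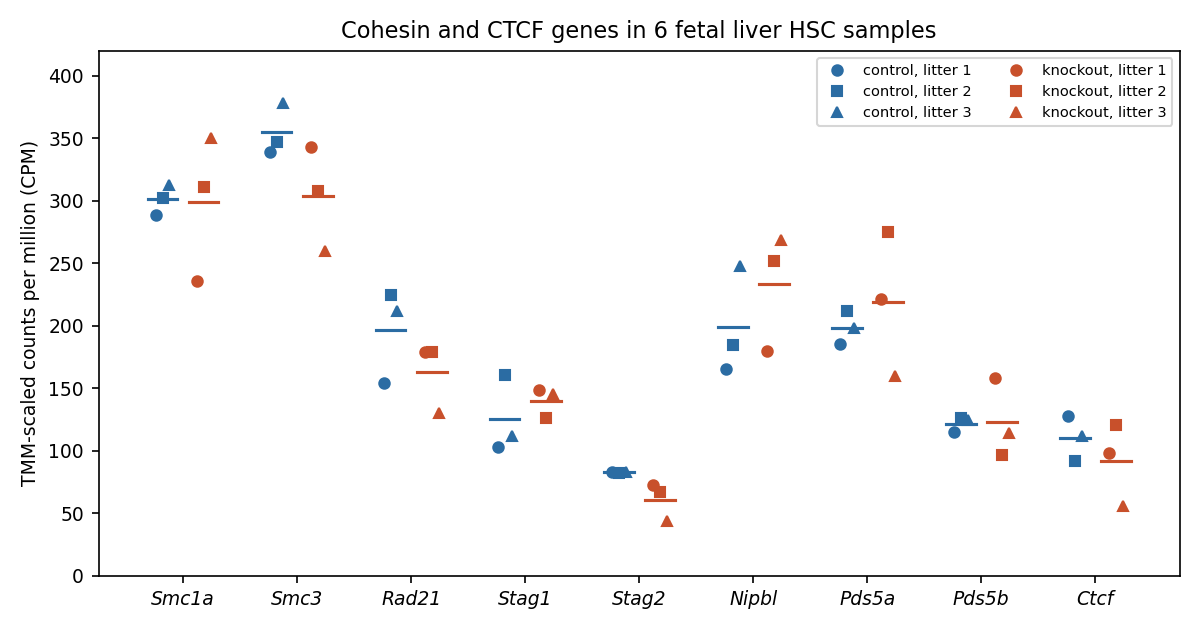
TMM-scaled CPM (linear axis) of each cohesin and CTCF gene in the 3 control samples (blue) and the 3 knockout samples (orange); marker shapes give the litter and bars the group means. The Stag2 points of the knockouts, 43.4 to 72.4 CPM, lie below all 3 controls, and in each of the other 8 genes the groups overlap.

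The 2 SMC subunits are the ATPase arms of the ring. Smc1a had 289, 302 and 313 CPM in the controls of litters 1 to 3, and 236, 311 and 350.4 CPM in the knockouts of the same litters. The knockouts thus lay on both sides of the controls, with knockout 1 lowest and knockout 3 highest of all 6 samples. The mean was 301 ± 11.97 CPM in controls against 299 ± 58.3 in knockouts (SD, 3 samples each), a log2 fold change of -0.01 (SE 0.21, 95% interval -0.49 to 0.47; edgeR adjusted p = 0.995). Its sign changed with the scaling, to 0.17 with library sizes alone, and with the samples used, from -0.13 without knockout 3 to 0.13 without knockout 1. Smc3 had 339, 347 and 379 CPM in controls and 343, 308 and 259 CPM in knockouts. Knockout 1 was level with the controls, and knockouts 2 and 3 were below all of them. The log2 fold change of Smc3 was -0.22 (SE 0.19, interval -0.67 to 0.22; edgeR adjusted p = 0.884), and -0.11 without knockout 3.

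Rad21 encodes the kleisin that separase cuts at anaphase. It had 154, 225 and 212 CPM in controls and 179, 179 and 129.9 CPM in knockouts. The groups overlapped through control 1, and the log2 fold change was -0.27 (SE 0.24, interval -0.83 to 0.28; edgeR adjusted p = 0.889). Within litters the difference was 0.22, -0.33 and -0.71 on the log2 scale for litters 1 to 3. The fitted log2 change of Rad21 was -0.12 without knockout 3, -0.16 without control 2 and -0.42 without control 1.

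The STAG subunits are alternatives in the ring, STAG2 being known for its loss in myeloid malignancy. Stag2 had 83.2, 81.8 and 83.1 CPM in the controls of litters 1 to 3, and 72.4, 67.02 and 43.4 CPM in the knockouts of the same litters. The controls nearly coincided and every knockout was lower, most of all knockout 3. Its mean in knockouts was 73.7% of that in controls, with 82.7 ± 0.754 CPM in controls against 60.9 ± 15.4 in knockouts (SD, 3 samples each). The log2 fold change of -0.44 (SE 0.26, interval -1.05 to 0.17) did not pass (edgeR adjusted p = 0.831, DESeq2 adjusted p = 0.772), and it was -0.23 without knockout 3. Among the members Stag2 was the one whose groups did not overlap with the knockout lower, 1 of 9, where 7.74% of all tested genes and 8.37% of genes of like level had that pattern. For 0 of 9 the knockouts were all higher, a pattern of 6.39% and 10.1%. In either direction the groups were apart for 14.1% of all tested genes and 18.4% of genes of like level. With upper-quartile scaling Smc3 was apart as well, 2 of 9, and with library sizes alone 0 of 9 were. The Stag2 groups then overlapped, at 62.1, 86.2 and 84.5 CPM in controls and 90.4, 66.4 and 43.9 in knockouts. The paralog Stag1 had 103, 161 and 112 CPM in controls and 148, 127 and 145 in knockouts. The knockouts of Stag1 all lay within the range of the controls, with a log2 fold change of 0.16 (SE 0.24, interval -0.39 to 0.71; edgeR adjusted p = 0.941). It was 0.04 without control 1, 0.09 without control 3 and 0.39 without control 2.

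Because Smc1a and Stag2 are X-linked, the X inactivation transcript is given beside them. Xist had 497, 488 and 182 CPM in controls and 64.6, 126 and 163 CPM in knockouts, so it was lower in every knockout. Xist had a log2 fold change of -1.72 (SE 0.46; edgeR adjusted p = 0.629), and DESeq2 called it (adjusted p = 0.0243). The summed level of 4 Y-linked genes was 24.3 to 72.1 CPM in controls and 43.9 to 91.99 CPM in knockouts. Stag2 and Xist were both below every control in all 3 knockouts. Among the knockouts, knockout 3 had the least Stag2 and the most Xist. The knockouts of Smc1a, the other X-linked member, lay on both sides of the controls. Whether the sex makeup of the samples contributes to the Stag2 values was not tested.

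Nipbl, the loader gene, had 165, 184 and 248 CPM in controls and 179, 252 and 269 CPM in knockouts. It was the 1 member of 9 that was higher in the knockout in all 3 litters, by 0.12, 0.45 and 0.12 on the log2 scale, while 12.3% of all tested genes and 16.9% of genes of like level were. Stag2 was the 1 member lower in all 3 litters (15.9% and 15.5%). The Nipbl groups overlapped, and its log2 fold change was 0.23 (SE 0.25, interval -0.35 to 0.80; edgeR adjusted p = 0.914). With 1 sample left out it ranged from 0.11 without control 1 to 0.42 without control 3, and it was 0.13 without knockout 3 and 0.39 without knockout 1.

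Pds5a had 185, 212 and 198 CPM in controls and 221, 275 and 159.5 CPM in knockouts. Knockouts 1 and 2 were above all controls and knockout 3 was below them, giving a log2 fold change of 0.14 (SE 0.24, interval -0.42 to 0.70; edgeR adjusted p = 0.956), or 0.34 without knockout 3 and -0.06 without knockout 2. Pds5b had 115, 126 and 124 CPM in controls and 158, 96.5 and 114 CPM in knockouts. Here knockout 1 was above all controls and knockout 2 was below them. Knockout 3 was level with control 1, just below it with TMM and just above it with size factors in the style of DESeq2 (115.3 against 114.6 CPM). The log2 fold change of Pds5b was 0.02 (SE 0.24, interval -0.54 to 0.57, edgeR adjusted p = 0.994). It was 0.08 without knockout 3, 0.16 without knockout 2 and -0.21 without knockout 1.

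Ctcf had 127, 91.4 and 112 CPM in controls and 98.1, 121 and 55.9 CPM in knockouts. Knockouts 1 and 2 fell inside the range of the controls and knockout 3 was far below it. In counts, knockout 3 had 1957 where the other samples had 3418 to 4938. The log2 fold change was -0.27 (SE 0.31, interval -0.99 to 0.46; edgeR adjusted p = 0.925), and it was 0.00 without knockout 3. Without control 1 it was -0.15 and without knockout 2 it was -0.52. The lower mean of Ctcf in the knockouts thus rests on 1 library, knockout 3.

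**Figure D2:**
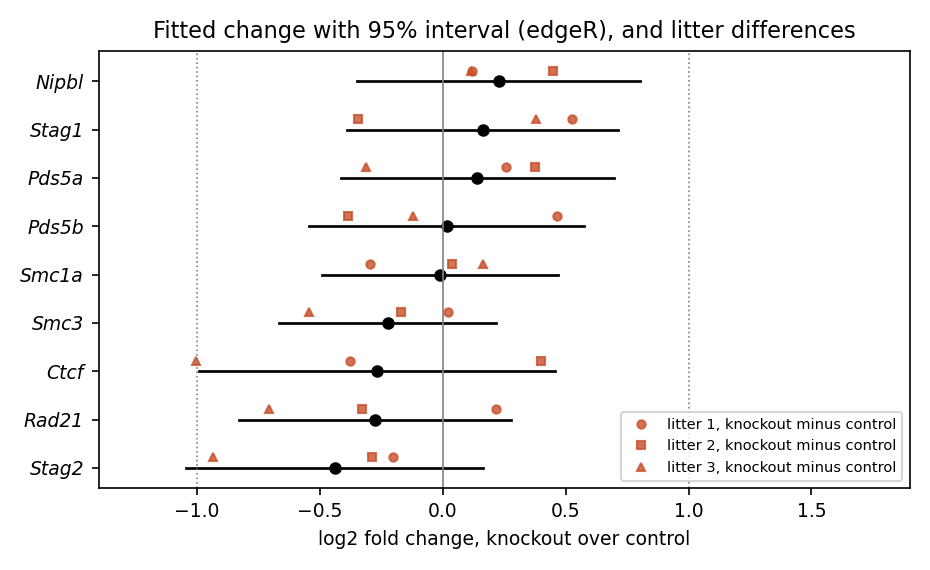
Fitted log2 fold change, knockout over control, of each cohesin and CTCF gene (black points) with its 95% interval from edgeR (black lines), and the difference within each litter (orange markers, litter 1 circle, 2 square, 3 triangle). All 9 intervals span 0, and all but that of Stag2 lie between the dotted lines at a 2-fold change.

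The intervals bound what these samples could hide. For 8 of the 9 members the 95% interval of the change in the main edgeR fit lay within 2-fold either way. Stag2 was the exception, with a lower bound at a fold of 0.484. Ctcf was only just inside, with a lower bound at 0.503, and its fitted log2 change was -0.37 with upper-quartile scaling. Intervals from the other settings are not given here. In the main fit 11.7% of all tested genes and 61.8% of genes of like level had intervals within 2-fold either way. No member had a fitted change of 2-fold or more, as 26.4% of all tested genes and 3.46% of genes of like level had. The median size of the fitted log2 change was 0.22 over the members, 0.26 over the genes of like level and 0.52 over all tested genes. The median biological coefficient of variation, the spread between replicates beyond counting error, was 0.268 for the members, 0.284 for genes of like level and 0.651 for all tested genes. The members thus had the spread and the size of change usual at their level of expression. Counting error was at most 2.56% of a member's count in any sample. Some samples differed by less than that, such as the Stag2 controls and Rad21 in knockouts 1 and 2.

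The coefficient of variation (CV, SD over mean) was larger in knockouts than in controls for 6 of the 9, as it was for 74.5% of all tested genes and 78.1% of genes of like level, so the members' share was no higher than the background. Stag2 had a CV of 0.912% in controls and 25.3% in knockouts, Smc1a 3.97% and 19.5%, Pds5b 4.93% and 25.95%, Pds5a 6.68% and 26.4%, Smc3 5.94% and 13.9%, and Ctcf 16.4% and 35.96%. Rad21, Nipbl and Stag1 had the smaller CV in knockouts, at 17.5%, 20.3% and 8.47% against 19.2%, 21.7% and 24.7%. The number was 5 of 9 with library sizes alone and 7 of 9 with upper-quartile scaling. Without knockout 3, an alternative chosen after seeing the data, it was again 6 of 9, with Nipbl in place of Ctcf, and the knockout CV was 5.41% for Stag2, 7.72% for Smc3, 15.2% for Pds5a and 14.6% for Ctcf. Knockout 3 was the lowest of the 6 samples for 5 members (Smc3, Rad21, Stag2, Pds5a and Ctcf) and the highest for 2 (Smc1a and Nipbl), so its deviation did not go one way.

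Ratios of 2 genes within a library need no scaling between libraries. The ratio of Stag2 to Stag1 counts was 0.807, 0.51 and 0.743 in the controls of litters 1 to 3, and 0.487, 0.53 and 0.299 in the knockouts of the same litters. Control 2 was as low as knockouts 1 and 2, so the groups overlapped, and the mean log2 ratio was -0.57 ± 0.35 in controls against -1.23 ± 0.45 in knockouts (SD, 3 samples each; two-sided exact permutation p = 0.2, Benjamini-Hochberg adjusted over 4 ratios 0.8). The difference of -0.66 was -0.41 without knockout 3. As a share of the counts of both genes, Stag2 made up 44.7% in control 1 (95% Wilson interval 43.3 to 45.98) and 22.997% in knockout 3 (21.998 to 24.03), the extremes of the 6 samples. With 3 samples against 3 the smallest p this test can give is 0.1.

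The groups of the other 3 ratios overlapped too. Smc1a to Smc3 was 0.853, 0.872 and 0.826 in controls, and 0.686, 1.01 and 1.35 in knockouts. The 2 ATPase subunits, which enter the ring in equal number, thus had a near constant ratio of counts in controls (SD 0.04 on the log2 scale) and a ratio spread over both sides of it in knockouts (SD 0.49). Pds5a to Pds5b was likewise 1.61, 1.68 and 1.596 in controls (log2 SD 0.04) and 1.398, 2.85 and 1.399 in knockouts (log2 SD 0.59), where knockout 2 was high and both others were just below the controls. Nipbl to Wapl, loader over release factor, was 0.822, 0.719 and 0.885 in controls (log2 SD 0.15) and 0.657, 0.979 and 0.769 in knockouts (log2 SD 0.29). The differences of the mean log2 ratio, knockout minus control, were 0.20, 0.12 and -0.03 in that order, with exact permutation p of 0.7, 1.0 and 1.0. Whether the spread itself differs between genotypes was not tested, and no ratios of other gene pairs were taken for comparison. For single genes a larger CV (SD over mean) in knockouts was common, at 74.5% of all tested genes and 78.1% of genes of like level. Without knockout 3 the Smc1a to Smc3 difference was -0.03, while that of Pds5a to Pds5b was 0.29 without it and -0.22 without knockout 2.

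**Figure D3:**
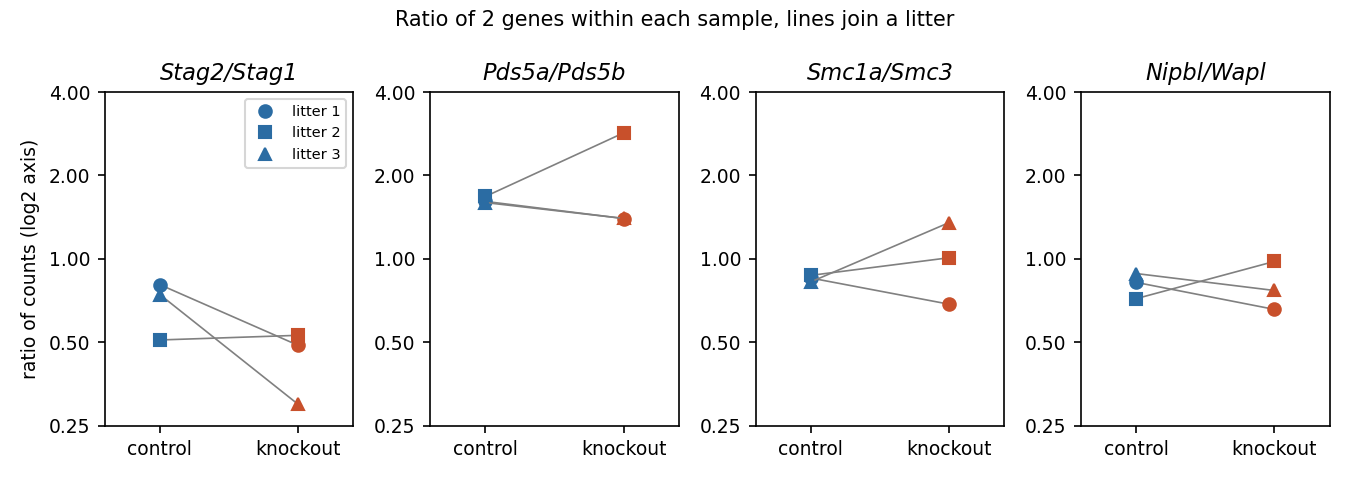
Ratio of the counts of 2 genes in each sample on a log2 axis, with controls in blue, knockouts in orange and lines joining samples of a litter. Control ratios of Smc1a to Smc3 (0.826 to 0.872) and Pds5a to Pds5b (1.596 to 1.68) almost coincide, and the knockout points lie on both sides of them.

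Levels were compared between genes as CPM per kilobase of exon, using the union of a gene's annotated exons. In controls the order was Smc3 (64.01 ± 3.803), Smc1a (52.2 ± 2.07), Rad21 (46.5 ± 8.93), Ctcf (22.7 ± 3.72), Nipbl (21.1 ± 4.58), Pds5b (12.4 ± 0.609), Stag1 (10.6 ± 2.63), Pds5a (10.3 ± 0.685) and Stag2 (9.99 ± 0.0911) (SD, n = 3 each). Smc3 lay above Smc1a in all controls, Smc1a and Rad21 overlapped, and a gap followed before Ctcf and Nipbl, which overlapped. Below a further gap the ranges of Pds5b, Stag1, Pds5a and Stag2 overlapped from each gene to the next. The 3 subunits that every ring holds were thus highest and the alternative STAG subunits were among the lowest. In knockouts the means of the top 3 kept their order but neighbours among them overlapped, with 54.8 ± 7.61 for Smc3, 51.8 ± 10.1 for Smc1a and 38.5 ± 6.72 for Rad21, and Stag2 was again last at 7.37 ± 1.86 (SD, n = 3 each). With the longest transcript as the length, Pds5a moved from the eighth place to the fifth in controls. Its exon union is 19.3 kb and its longest transcript 8.93 kb. The gap below Nipbl was then gone, with control means of 21.1 for Nipbl, 20.2 for Stag1 and 16.4 for Pds5b. From Pds5a through Nipbl and Stag1 to Pds5b each range overlapped the next. The top 3 in controls and Stag2 as the last kept their places. In knockouts Smc1a came before Smc3. The annotation the authors counted with is not given in the sources used here, so levels per length are approximate.

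**Figure D4:**
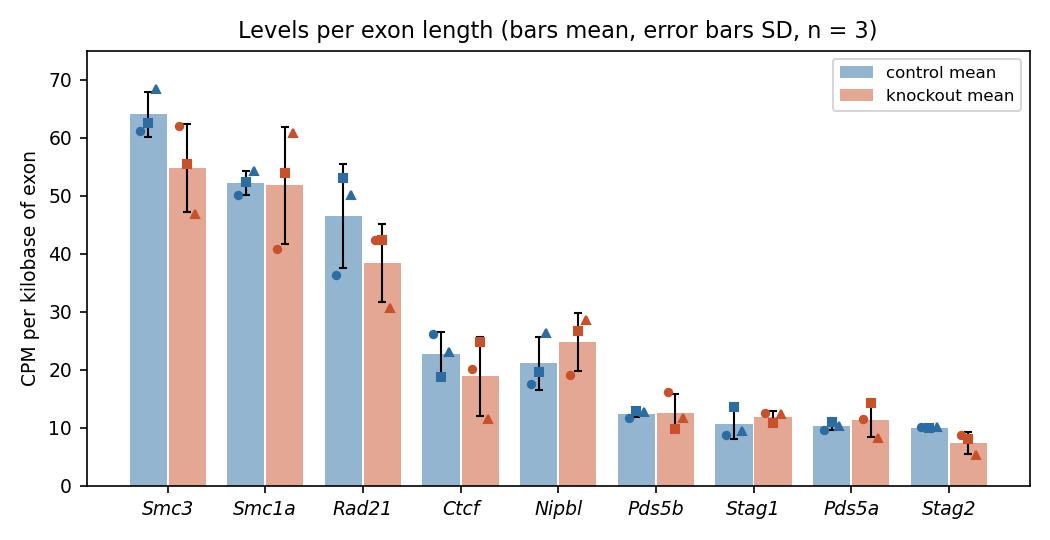
CPM per kilobase of exon for each cohesin and CTCF gene in controls (blue) and knockouts (orange), ordered by the control mean; bars are means, error bars SD (n = 3), points samples with one shape per litter. By this length, the union of exons, Smc3, Smc1a and Rad21 stand above Ctcf and Nipbl, and the PDS5 and STAG genes lie lowest.

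The remaining genes of the pathway were read from lists of other regulators and of the related SMC complexes. Those named by rule are the 3 tested genes of a list with the smallest edgeR p. Small p-values and groups that do not overlap therefore follow in part from that choice. With TMM scaling the groups were apart, in either direction, for 14.1% of all tested genes. Of 6 genes for loading, release and acetylation of cohesin, 0 passed in edgeR, with a median log2 fold change of 0.26, or 0.05 without knockout 3. Mau2, the partner of Nipbl, had 21.7, 33.9 and 32.6 CPM in controls and 51.5, 25.7 and 88.4 in knockouts. Its groups overlapped through knockout 2 (log2 fold change 0.91, SE 0.46; edgeR adjusted p = 0.795), and without knockout 3 the change was 0.41. Cdca5, which encodes sororin, the protector of cohesion, had 24.1, 25.996 and 27.9 CPM in controls and 19.9, 10.6 and 17.2 CPM in knockouts. Every knockout was lower under 3 of 4 scalings, but the log2 fold change of -0.71 (SE 0.39) did not pass (edgeR adjusted p = 0.802). Wapl, the release factor, listed under its older symbol Wapal, averaged 246 ± 40.6 CPM in controls against 293 ± 49.4 in knockouts (SD, 3 samples each; edgeR adjusted p = 0.889). Its log2 change of 0.25 was 0.12 without knockout 3 and 0.13 without control 1.

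Of 8 genes that protect or cleave cohesion in mitosis, 0 passed in edgeR, 6 had a negative log2 fold change and the median was -0.26. Plk1, a kinase that helps strip cohesin from chromosome arms, had 26.04, 36.9 and 51.5 CPM in controls and 33.3, 21.7 and 10.3 in knockouts. Its log2 change of -0.81 (edgeR adjusted p = 0.834) was -0.46 without knockout 3, -0.53 without control 3 and -1.25 without knockout 1. Bub1, a kinase that places the shugoshin protectors at centromeres, averaged 52.8 ± 12.6 CPM in controls against 40.9 ± 14.2 in knockouts (SD, 3 samples each). Its log2 change of -0.37 (edgeR adjusted p = 0.902) was -0.10 without knockout 3, -0.15 without control 2 and -0.60 without knockout 2. Haspin, a histone kinase of centromeres listed as Gsg2, had 280, 611 and 836 counts in controls and 378, 170 and 1 in knockouts, again least in knockout 3. The fitted log2 change was -1.66 (standard error 1.303; edgeR adjusted p = 0.874), and -1.06 without knockout 3 or -2.66 without knockout 1. Beside this list, the summed level of 16 proliferation genes was 2543 to 3358 CPM in controls and 2346 to 2928 CPM in knockouts, so the groups overlapped. The log2 fold change was negative for 14 of the 16, as for 6719 of all 13646 tested genes. Such genes tend to move together, so the 14 are not independent. An unadjusted edgeR p under 0.05 was found for 1 of the 16, against 6.51% of all tested genes. The part of proliferation in these values was not tested.

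Condensin compacts mitotic chromosomes with an SMC pair of its own. Of its 8 subunit genes 0 passed in edgeR, 2 had an unadjusted p under 0.05 where 6.51% of all tested genes did, and the median log2 fold change was 0.01. Ncapg2, a condensin II subunit, had 80.5, 81.04 and 80.3 CPM in controls and 39.2, 51.6 and 47.9 in knockouts. The groups were apart under all 4 scalings, with a log2 fold change of -0.80 (SE 0.24, unadjusted p = 0.00926; edgeR adjusted p = 0.672, DESeq2 adjusted p = 0.209). Smc2, an ATPase arm of both condensins, had 196, 191 and 209 CPM in controls and 158, 144 and 124 in knockouts, apart under 3 of 4 scalings (log2 fold change -0.49, SE 0.20; edgeR adjusted p = 0.753). Ncaph, the condensin I kleisin, was at 42.3 ± 12.1 CPM in controls against 55.8 ± 12.6 in knockouts (SD, 3 samples each; edgeR adjusted p = 0.877).

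The SMC5/6 complex acts in DNA repair. Of its 6 genes in the files 0 passed in edgeR and 1 passed in DESeq2, where 1.02% of all tested genes did. That gene was Nsmce1, a RING-domain subunit, with 15.9, 12.2 and 23.2 CPM in controls and 37.4, 55.6 and 48.8 CPM in knockouts. Every knockout was above every control under all 4 scalings, with a mean of 17.1 ± 5.62 CPM in controls against 47.2 ± 9.22 in knockouts (SD, 3 samples each). The log2 fold change was 1.46 (SE 0.37, interval 0.61 to 2.31; edgeR adjusted p = 0.622, DESeq2 adjusted p = 0.0335). With litter as a block, DESeq2 gave an adjusted p of 0.0509, so its call was lost. Ndnl2, another subunit gene, had 4.94, 10.9 and 20.5 CPM in controls and 3.85, 4.19 and 6.11 in knockouts (log2 fold change -1.36, SE 0.71; edgeR adjusted p = 0.797), or -0.74 without control 3. The ATPase gene Smc6 averaged 125 ± 13.7 CPM in controls against 151 ± 31.1 in knockouts (SD, 3 samples each; edgeR adjusted p = 0.884).

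Of 8 other factors linked to CTCF or to contacts between enhancers and promoters, 7 were tested and 0 passed in edgeR, with a median log2 fold change of 0.12, or -0.20 without knockout 3. Maz, a zinc finger protein found at CTCF sites, had 56.3, 49.1 and 53.6 CPM in controls and 18.7, 25.7 and 35.5 CPM in knockouts. The groups were apart under all 4 scalings, and the log2 fold change was -0.99 (SE 0.33, unadjusted p = 0.0158; edgeR adjusted p = 0.709, DESeq2 adjusted p = 0.254). Yy1, whose core was found in 4 of the 6 promoter windows, had 51.1, 31.1 and 39.4 CPM in controls and 34.5, 20.97 and 39.1 in knockouts (log2 fold change -0.36, SE 0.36; edgeR adjusted p = 0.904), or -0.14 without knockout 2 and -0.16 without control 1. Zfp143 averaged 9.68 ± 2.08 CPM in controls against 15.1 ± 6.13 in knockouts (SD, 3 samples each; edgeR adjusted p = 0.879).

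**Figure D5:**
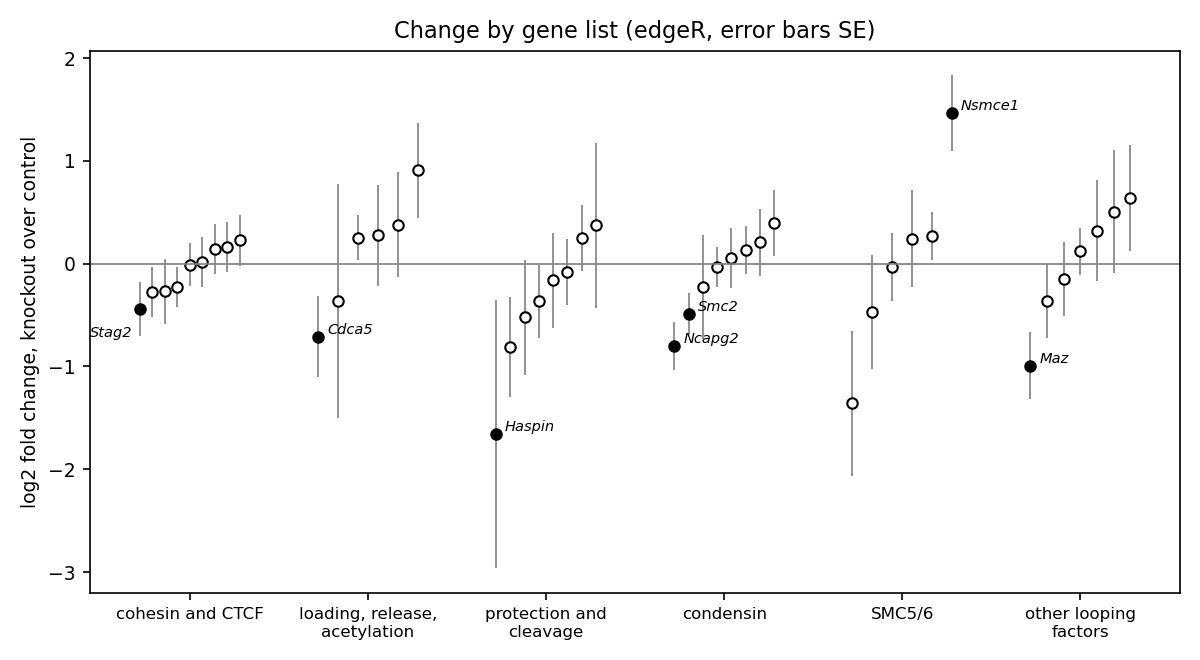
Log2 fold change, knockout over control, of each tested gene of 6 lists (edgeR; error bars SE). Filled points mark genes whose TMM-scaled groups do not overlap: Stag2, Cdca5, Haspin, Smc2, Ncapg2 and Maz lower and Nsmce1 higher in the knockouts. In either direction the groups were apart for 14.1% of all tested genes and 18.4% of genes of like level.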

How the data were processed

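Total RNA of sorted HSCs was selected for poly(A) RNA and sequenced (6 libraries, 3 per genotype). The authors deposited whole-number read counts per gene symbol, 1 list per sample, not normalized. The submitters' processing notes name CASAVA 1.8.4, TopHat2, Picard 1.126, HTSeq 0.6.0, DESeq 3.0, bedtools 2.17.0 and the build mm10, without roles. The strand setting and the annotation are not given in the sources used here. Of each list's total, 41.01% to 50.99% stood in 5 tallies of reads given to no gene, kept out of library sizes, and 13.4% to 18.3% was the tally of alignments that were not unique, where reads shared by paralogs would fall. Exon lengths came from GENCODE M21 (GRCm38), which may differ from the authors' annotation.

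Genes were kept with filterByExpr by genotype and tested with edgeR 4.0.16 (TMM, glmQLFit, glmQLFTest, R 4.3.3) on genotype alone, with Benjamini-Hochberg adjustment over all tested genes and a threshold of 0.05. Standard errors (SE) were obtained by dividing the absolute log2 change by the root of F, and 95% intervals use the t distribution with the fit's degrees of freedom. The labels pair the samples by litter. Deviations of litter mates from their genotype means correlated at -0.02, -0.08 and 0.00 across genes. Log2 CPM used a prior count of 2. Exact permutation tests were two-sided. Alternatives were other scalings, filters, the litter block, DESeq2 1.42.0, limma-voom (limma 3.58.1) and each sample left out. The fits were tested on simulated data. Wilson intervals of shares and floors of 3 counts cover counting error only, as no molecular identifiers are described.

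Named genes are the 9 members, Dpy30, Xist, the 3 tested genes of each pathway list with the smallest edgeR p, any gene of these 6 pathway lists called by edgeR or DESeq2, and the 5 genes nearest in pattern. Hlf, Ly6a, Smc1b, Rad21l, Ctcfl and the neighbours of Ctcf were named after their values were seen, and the promoter motifs were chosen after the windows were read. The members and lists were chosen with earlier results of these data known.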

Additional observations from a re-analysis of the deposited data

How the results depend on the processing

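The number of members past the threshold was 0 under each of the 16 alternatives. Over all genes the count of 0 in edgeR, with 888 genes at an unadjusted p under 0.05, became 1 without a filter on low counts, 1 with at least 10 counts in every sample, 139 with DESeq2 and 270 with DESeq2 and litter as a block. With litter as a block in edgeR, the pairing of the labels, it was 0, with 619 genes at an unadjusted p under 0.05. The block changed no other call of a gene named here than that of Nsmce1. Leaving out each sample in turn gave 0 to 0 genes.

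The median log2 fold change of the 9 members ranged from -0.21 to 0.17. Of 144 values for single members under the alternatives, 132 kept their sign and 12 did not, all of them short of the threshold. Smc1a turned to 0.00728 with DESeq2-style size factors, 0.00726 with DESeq2 and 0.17 with library sizes alone, and ranged from -0.13 to 0.13 when a sample was left out. Pds5b turned to -0.0151 with the litter block, -0.10 with upper-quartile scaling and -0.0109 with limma-voom, and ranged from -0.21 to 0.16 with a sample left out. Over the same fits Pds5a ranged from -0.0569 to 0.34, Ctcf from -0.52 to 0.00147 and Rec8, a germ line gene, from -1.52 to 0.0742. Stag2 kept its sign throughout, from -0.58 to -0.21. With a sample left out the log2 ratios, knockout minus control, ranged from -0.86 to -0.41 for Stag2 to Stag1, -0.22 to 0.29 for Pds5a to Pds5b, -0.0306 to 0.46 for Smc1a to Smc3 and -0.18 to 0.11 for Nipbl to Wapl. The cause of these changes was not tested. Library sizes alone moved the median of all genes to a log2 fold change of 0.23 and upper-quartile scaling to -0.10. The block left each ratio as it was, with exact sign-flip p of 0.5 to 1.0. The 95% intervals give the changes these samples leave possible under the main fit.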

Other observations

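The germ line counterparts of cohesin and CTCF ranged from no counts at all to a few CPM. Rad21l and Ctcfl, a germ line kleisin and the paralog of Ctcf, had 0 counts in each of the 6 samples, which allows up to 0.068 to 0.104 CPM, the level of 3 counts, per library. Smc1b had 9, 0 and 1 counts over the controls of litters 1 to 3, against 121, 39 and 0 in their knockouts, and Stag3 had 1, 24 and 9 in controls and 41, 150 and 0 in knockouts. Both had counts mainly in knockouts 1 and 2 and none in knockout 3. Stag3, tested as 1 of the 2 genes of this list that passed the filter, had a log2 fold change of 2.53 (SE 1.96; edgeR adjusted p = 0.869), which was 0.80 without knockout 2 and 3.81 without control 2. Rec8, the meiotic kleisin, had 8, 312 and 206 counts in controls (8.34 CPM at most) and 185, 98 and 13 in knockouts (log2 fold change -0.78, SE 1.35; edgeR adjusted p = 0.956), or -0.26 without knockout 3 and 0.07 without control 2.

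Among 8462 genes with a mean of at least 5 CPM, the 5 whose pattern over the 6 samples was nearest to the mean of the 9 members were Tnks2, U2surp, Dcp2, Rbbp6 and Poldip3. Likeness was the root mean square difference of log2 CPM after centring each gene, which was 0.0688, 0.0713, 0.0721, 0.0731 and 0.0796 in that order, against a median of 0.582 over the genes compared. The mean of the members was itself nearly flat, at -0.06, 0.09 and 0.11 from its average over the controls of litters 1 to 3, and 0.03, 0.06 and -0.22 in their knockouts. Knockout 3 was the lowest sample. Of the members themselves Smc3 was nearest to that mean (0.0981) and Ctcf farthest (0.325). The 2 members most like each other were Smc3 and Rad21, with a difference of 0.164.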
